A study of Mus musculus with 576 samples.

Results

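The 41 genes described here encode proteins of the nucleolus and of ribosome assembly. They were chosen by a fixed list of symbols, and all 41 were found among the 49466 genes counted in single cells of the red cell lineage from mouse fetal liver. The cells came from C57/Bl6J embryos at day 14.5, were depleted of cells of other blood lineages and sorted for burst forming unit-erythroid (BFU-E) cells, the early committed progenitors of the red cell lineage. All groups were then cultured with 3 growth factors, namely 100 ng/mL stem cell factor, 40 ng/mL insulin-like growth factor 1 and 2 U/mL erythropoietin. The 3 control groups received no further agent for 24, 48 or 72 hours (days 1, 2 and 3), and the 3 other groups received the synthetic glucocorticoid dexamethasone at 100 nM for the same times. Each of these 6 groups is a single plate of 96 wells with 1 sorted cell per well, and the labels do not say how many embryos or cultures a plate holds. The sort enriches for BFU-E cells and does not give a pure population.

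Ribosomes are built in the nucleolus. RNA polymerase I transcribes the ribosomal RNA precursor, small nucleolar ribonucleoproteins (snoRNPs) of the box C/D and box H/ACA classes guide its methylation and pseudouridylation, and large sets of assembly factors fold and cleave it into the small and the large subunit. Many of these genes are known targets of the transcription factor MYC, and red cell precursors are known to shut down ribosome production as they mature and fill with haemoglobin.

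After removal of 12 wells with low counts or a high mitochondrial share, 94, 96 and 93 control cells and 94, 92 and 94 dexamethasone cells of days 1 to 3 were kept. Their summed counts ran from 88178493 to 116623968 per plate. The 14 red cell markers summed to 3973, 21507 and 34858 CPM (counts scaled to a fixed library size) on the control plates, in the order of days 1, 2 and 3, and to 2656, 4179 and 12229 CPM with dexamethasone, with Slc4a1 at 0 on dexamethasone day 1 and no other marker of the list at 0. The 6 early progenitor markers stood at 737, 247 and 126 CPM against 797, 939 and 451 CPM. The 10 neutrophil and monocyte markers summed to 1340 CPM on control day 1, 3.82 CPM on control day 2 and 1894 CPM on control day 3, and to between 319 and 587 CPM on the dexamethasone plates. On control day 2, Elane, Ctsg, Ly6c2, Lyz2, S100a8 and S100a9 were at 0. The numbers of cells with at least 2 of these markers were 46, 0 and 58 on the control plates and 25, 25 and 41 on the dexamethasone plates. The plates thus held different amounts of this signal, and results that move without those cells are given both ways. Any count of a marker sufficed, so such a cell need not be a neutrophil or monocyte. On control day 3, only 4 of the 58 cells had a mean log2(CPM + 1) of the 14 red cell markers under 4. Without the 58 cells, the median member sum per cell on that plate was 14162 CPM, against 9198 CPM with them.

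Promoter sequence was examined because MYC and its partner MAX bind the E-box CACGTG, which reads the same on both strands, and because all 41 genes were highest on a day 1 plate. In the RefSeq promoter table (build GRCm38.p6, 250 bases before to 50 after each start), 36 members had an entry. Bop1, Fbl, Npm1, Rrp12 and Rrs1 had none. CACGTG occurred in 8 of the 36 (22.2%), namely Nop2, Rrn3, Ltv1, Utp20, Pes1, Mybbp1a, Tsr1 and Wdr43. It occurred in 8.09% of all 27025 genes of the table and in 18 of 104 (17.3%) other ribosome biogenesis genes. The matches are shown with up to 10 flanking bases on each side, 5′ to 3′ on the gene's strand, with CACGTG in capitals, so that the neighbouring bases can be compared. They lie at chr6:125131813-125131838 (Nop2, plus strand), chr16:13780474-13780499 and chr16:13780641-13780666 (both Rrn3, plus), chr10:13193094-13193119 (Ltv1, minus), chr10:88826765-88826787 (Utp20, minus), chr11:3963967-3963992 (Pes1, plus), chr11:72441357-72441376 (Mybbp1a, plus), chr11:74898094-74898119 (Tsr1, plus) and chr17:71616222-71616247 (Wdr43, plus).
Nop2: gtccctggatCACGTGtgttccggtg
Rrn3, first: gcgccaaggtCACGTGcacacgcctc
Rrn3, nearer the start: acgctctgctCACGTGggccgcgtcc
Ltv1: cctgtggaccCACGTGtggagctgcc
Utp20: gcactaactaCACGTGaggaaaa
Pes1: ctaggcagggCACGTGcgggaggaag
Mybbp1a: cttctgagccCACGTGtttg
Tsr1: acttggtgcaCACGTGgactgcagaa
Wdr43: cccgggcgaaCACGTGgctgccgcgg

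Nop2 and Rrn3 were the members whose matches lay before the start site, at -60 in Nop2 and at -215 and -48 in Rrn3. In the other 6 genes the first base of the match lay between 3 and 41 bases into the transcribed part. The 250 bases before the start of Nop2 (chr6:125131633-125131882, plus strand), a large subunit factor, and of Rrn3 (chr16:13780449-13780698, plus strand), the polymerase I initiation factor, are printed whole because their matches lie there.
Nop2 upstream: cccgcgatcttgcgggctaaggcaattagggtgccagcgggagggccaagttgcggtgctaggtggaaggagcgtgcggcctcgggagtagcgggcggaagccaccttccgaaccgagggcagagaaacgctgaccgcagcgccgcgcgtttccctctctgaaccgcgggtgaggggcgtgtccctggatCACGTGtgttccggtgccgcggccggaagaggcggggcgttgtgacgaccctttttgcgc
Rrn3 upstream: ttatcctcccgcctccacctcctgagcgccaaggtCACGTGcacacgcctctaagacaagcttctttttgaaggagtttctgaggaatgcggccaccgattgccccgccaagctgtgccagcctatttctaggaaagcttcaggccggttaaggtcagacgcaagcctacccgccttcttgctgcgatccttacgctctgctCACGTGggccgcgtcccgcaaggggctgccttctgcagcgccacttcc
A match is a description of the letters in this window and not a measured binding site. No binding was measured in these samples.

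Every member was highest on a day 1 plate, 28 of them on the control plate and 13 on the dexamethasone plate, and 28 of the 41 were lowest on a day 3 plate, 25 of these on control day 3. The shares of all genes with such highest and lowest plates were not counted. Both day 3 plates lay below both day 1 plates for 38 members and for 24.5% of the 20040 genes tested. The summed level of the 41 genes was 21078, 12934 and 11510 CPM on the successive control plates and 19997, 12897 and 12747 CPM on the dexamethasone plates. These CPM are shares of all counts of a plate after TMM scaling, so a lower value is a smaller share of the messenger RNA. In such plate sums, fewer cells of a type and less RNA per cell cannot be told apart. The difference between days 1 and 2 was larger, in both treatments, than the difference between the treatments on any day. Mean levels of single members ran from 7.86 CPM (Npm3) to 2925 CPM (Ncl), with a median of 203 CPM. The highest plate was between 1.501 times (Pes1) and 4.60 times (Npm3) the lowest plate, with a median of 2.29.

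**Figure D1:**
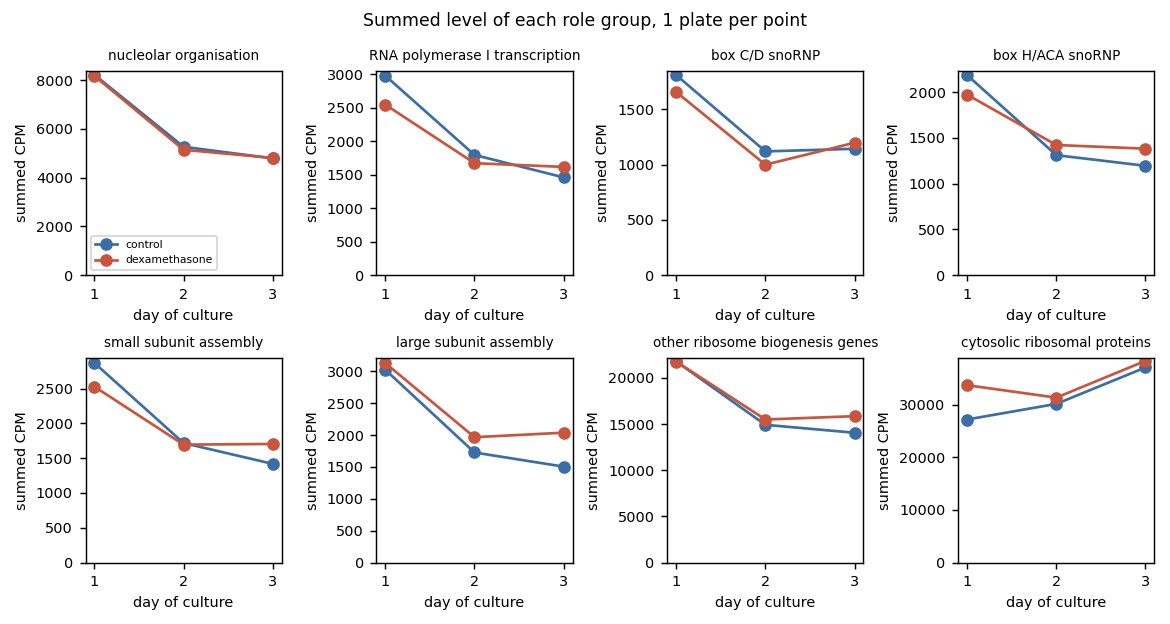
Summed level (TMM-scaled CPM) of the members of each of the 6 roles against day in culture, with 1 point per plate and separate lines for control and dexamethasone. In all 6 role panels both day 1 points lie above the points of days 2 and 3. For the large subunit factors they are 3024 and 3128 CPM on day 1 against 1504 and 2037 CPM on day 3. Further panels show the other ribosome biogenesis genes, with the same order, and the cytosolic ribosomal proteins. The latter are highest on day 3, at 37077 CPM (control) and 38333 CPM (dexamethasone).

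Among the proteins that organise the nucleolus, Npm1 (nucleophosmin) was the most abundant member per length, at 1072 CPM per kilobase of exon, and Ncl (nucleolin) the most abundant by share of counts. Ncl stood at 4505, 2739 and 2116 CPM on the successive control plates and at 3581, 2542 and 2065 CPM on the dexamethasone plates. It was thus lower on each later day in both treatments, and both day 1 plates were above the other 4. Npm1, a histone chaperone of the granular component, stood at 3309, 2331 and 2450 CPM in controls and at 4150, 2422 and 2472 CPM with dexamethasone, so that its 4 later plates were alike and its highest plate was dexamethasone day 1. Npm1 and Ncl together made up between 35.6% and 39.7% of the summed member level. Gnl3 (nucleostemin, a nucleolar GTP-binding protein of proliferating cells) was at 386, 188 and 219 CPM against 424, 169.5 and 265 CPM, with day 2 as the lowest day of each treatment. Npm3, the smaller relative of nucleophosmin, was the least abundant member and the one with the widest range, at 13.4, 4.59 and 2.91 CPM in controls and 10.95, 7.96 and 7.42 CPM with dexamethasone.

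**Figure D2:**
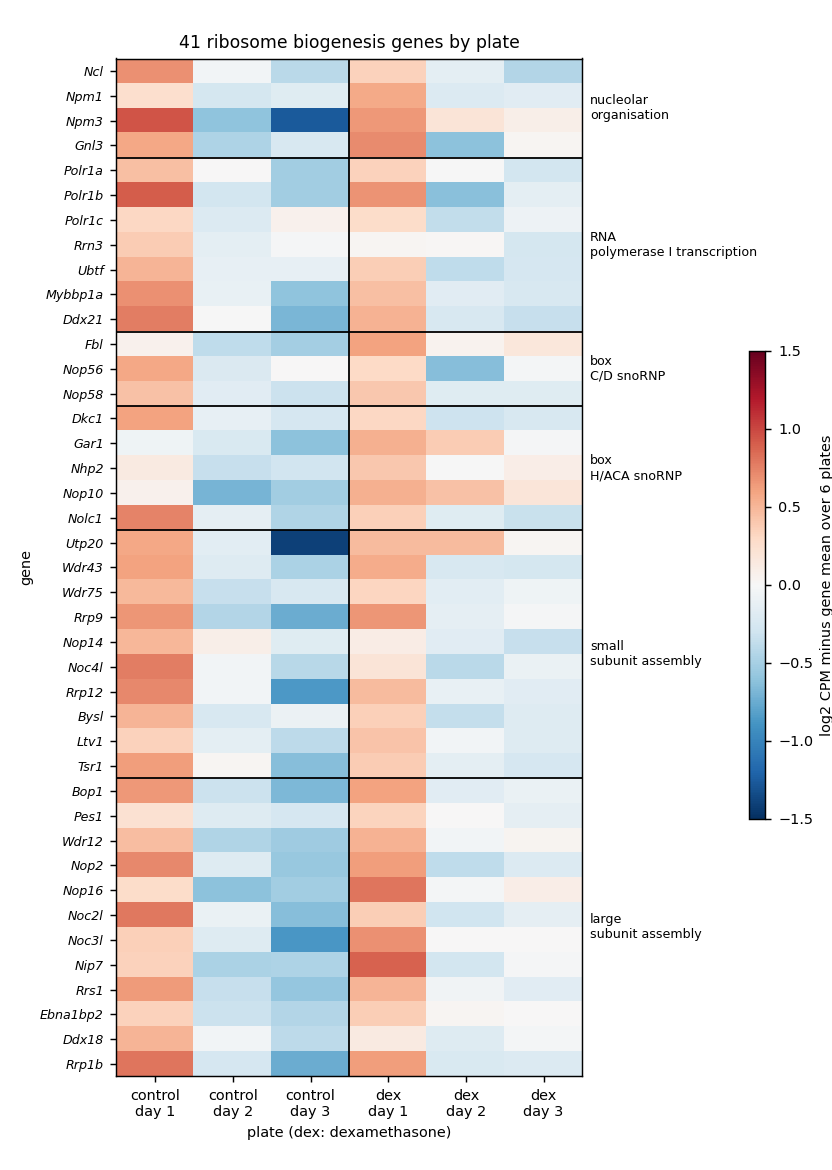
Level of each of the 41 members on the 6 plates, as log2 of its CPM relative to its own mean over the plates, with genes in rows by role and plates in columns. The columns of day 1 are the highest for nearly all genes, and the lowest cells lie in the control day 3 column for 25 genes.

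Of the 7 genes of RNA polymerase I transcription, the core subunit gene Polr1b had the widest range over the plates, with its lowest plate on dexamethasone day 2. It stood at 282, 124 and 104 CPM in controls and at 239.5, 97.8 and 136 CPM with dexamethasone. Polr1a, the largest subunit, stood at 165, 121 and 83.99 CPM against 153, 119.8 and 99.8 CPM. Polr1c, a subunit that RNA polymerase III shares, stood at 139, 97.1 and 118 CPM against 136, 87.1 and 106.5 CPM. Rrn3, which recruits the polymerase to its promoter, was at 406, 282 and 308 CPM against 318, 316 and 259.8 CPM, so that its control plate of day 3 and its dexamethasone plate of day 1 were nearly level. Ubtf, the upstream binding factor of ribosomal DNA, was at 293, 188.4 and 188.4 CPM against 265, 158 and 172 CPM. The nucleolar proteins Mybbp1a and Ddx21 (an RNA helicase) were the most abundant of this role. Mybbp1a was at 933, 539 and 381 CPM against 791, 516 and 489.9 CPM, and Ddx21 at 759, 443 and 277 CPM against 642, 378 and 352 CPM. In both, control day 3 was the lowest plate.

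The core proteins of box C/D snoRNPs did not share one course. Nop56 was at 878, 504 and 591 CPM in controls and at 725, 379 and 575 CPM with dexamethasone, lowest on day 2 in both treatments. Its paralog Nop58 was at 894, 588 and 527 CPM against 877, 583 and 582 CPM. Fbl (fibrillarin, the methyltransferase of these particles) was listed at only 37.9, 27.7 and 25.5 CPM against 55.1, 37.5 and 40.7 CPM, or 8.88 CPM per kilobase of exon where Nop56 reached 148. For Fbl, 83.3% of the longest annotated transcript has a copy of at least 95% identity in other annotated genes, namely Gm5812 and Tulp4. These genes held 6480 counts beside 24267 on Fbl, including any counts outside the matching part. The level of Fbl is thus uncertain, by an amount that these counts do not measure. Npm1, Npm3, Pes1 and Ddx18 also have over 50% of the transcript copied, but their copies held few counts, namely 26815 beside 1848600 on Npm1, 101 beside 4996 on Npm3, 797 beside 188737 on Pes1 and 1197 beside 69953 on Ddx18. Bysl shares 9.40% of its transcript with Ccnd3, which is more abundant.

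In box H/ACA snoRNPs, 3 of 5 genes were higher with dexamethasone on every day. Nop10, the smallest core protein, was at 145, 85.97 and 97.5 CPM in controls and at 201, 189 and 159 CPM with dexamethasone, and Gar1 at 19.4, 17.3 and 13.2 CPM against 29.3, 26.4 and 20.1 CPM. These were the only members for which every dexamethasone plate lay above every control plate, as it did for 7.14% of the 20040 genes tested, so 2 of 41 is no more than the background. Nhp2 was at 372, 267 and 279.5 CPM against 448.5, 339.6 and 363 CPM. Dkc1 (dyskerin, the pseudouridine synthase) was at 745, 449.8 and 412 CPM against 606, 394 and 412 CPM. Nolc1, a chaperone that moves snoRNPs through the nucleolus, was at 904, 491 and 394 CPM against 687, 474 and 428 CPM. For Dkc1 and Nolc1 the control plate was the higher one on days 1 and 2.

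The 10 small subunit factors summed to 2869, 1717 and 1418 CPM in controls and to 2528, 1695 and 1704 CPM with dexamethasone. Utp20, a large scaffold protein of the small subunit processome, had the widest range among them. It stood at 101, 60.5 and 25.7 CPM in controls and at 93.8, 94.1 and 69.1 CPM with dexamethasone, so only the controls showed a lower day 2. Noc4l was at 453, 257 and 198 CPM against 304, 200.3 and 247 CPM. Ltv1, an export and maturation factor, was at 253, 179 and 151 CPM against 268, 193 and 174 CPM. Nop14 was the small subunit gene with the lowest dexamethasone difference, at 229.8, 172 and 143 CPM against 176, 144 and 128 CPM, below the control on every day. The other 6 (Wdr43, Wdr75, Rrp9, Rrp12, Bysl and Tsr1) had means between 119 and 383 CPM, and in each both day 3 plates lay below both day 1 plates.

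The 12 large subunit factors summed to 3024, 1726 and 1504 CPM in controls and to 3128, 1966 and 2037 CPM with dexamethasone. Nop2, a nucleolar RNA methyltransferase, was at 465, 246 and 189.9 CPM against 434, 215 and 244 CPM. Nop16 was higher with dexamethasone on each day, at 225, 121 and 129 CPM in controls and at 326, 182 and 199 CPM with dexamethasone. Rrp1b was at 187, 90.5 and 64.4 CPM against 166, 91.6 and 93.0 CPM. Of the 3 members of the PeBoW complex, Wdr12 was at 369, 196 and 186 CPM against 386, 260.1 and 277 CPM, Bop1 at 363, 185 and 145 CPM against 350.4, 206 and 214 CPM, and Pes1 at 339.5, 252 and 244 CPM against 366, 290.3 and 263 CPM. All 3 had their lowest plate on control day 3, with a narrower range for Pes1 than for its partners.

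Comparison of the days asked how far the members changed in culture. In a model of day and dexamethasone over the 6 plate sums, the log2 fold change of day 3 against day 1 was negative for 41 of 41 members, with a median of -0.75 where all 20040 tested genes had a median of -0.03. Both day 3 plates lay below both day 1 plates for 38 of 41 members, with Fbl, Gar1 and Nop10 as the exceptions, where this order held for 24.5% of genes tested and 33.5% of the 4326 genes with a mean of at least 50 CPM. With 1 plate per group the model has 2 residual degrees of freedom. With all 20040 genes tested, edgeR's quasi-likelihood test with Benjamini-Hochberg adjustment called no gene (0%), and the smallest adjusted p of a member was 0.225. At an unadjusted p under 0.05, 34 members were lower (7.47% of all genes were). DESeq2 called 30 members lower (5.16% of genes). When only the 4326 genes with a mean of at least 50 CPM entered the edgeR test, 21 of the 37 members among them fell (5.15% of those genes did). Leaving out 1 plate leaves 1 residual degree of freedom and a single plate on 1 day. Fewer members then passed, and none in some of these fits, in which few genes of any kind were called lower. The member median in these fits ranged from -0.84 to -0.56. With all plates but without cells that held at least 2 neutrophil and monocyte markers, 11 members passed (106 of 4288 genes were lower).

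Members that passed in the test of the more abundant genes came from every role, and the values here are those of that fit. Ddx21 fell by 1.10 on the log2 scale (SE 0.20, edgeR adjusted p = 0.0216). Nop2 fell by 1.002 (SE 0.18, edgeR adjusted p = 0.0232), and Mybbp1a by 0.94 (SE 0.19, edgeR adjusted p = 0.0311). Nolc1, Rrp1b, Polr1b, Polr1a, Ltv1, Nop58 and Nop16 also passed, with edgeR adjusted p between 0.0293 and 0.0486. Npm1, at -0.54 (SE 0.18, edgeR adjusted p = 0.0979), did not pass, nor did Rrn3 at -0.30 (SE 0.18, edgeR adjusted p = 0.285), Polr1c at -0.25 (SE 0.18, edgeR adjusted p = 0.363), Ubtf at -0.58 (SE 0.16, edgeR adjusted p = 0.0546) or Nop56 at -0.40 (SE 0.17, edgeR adjusted p = 0.151). By role, 2 of 3 nucleolar organisers, 4 of 7 polymerase I genes, 1 of 2 box C/D, 2 of 4 box H/ACA, 5 of 10 small subunit and 7 of 11 large subunit genes passed. Whether the roles differ was not tested.

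**Figure D3:**
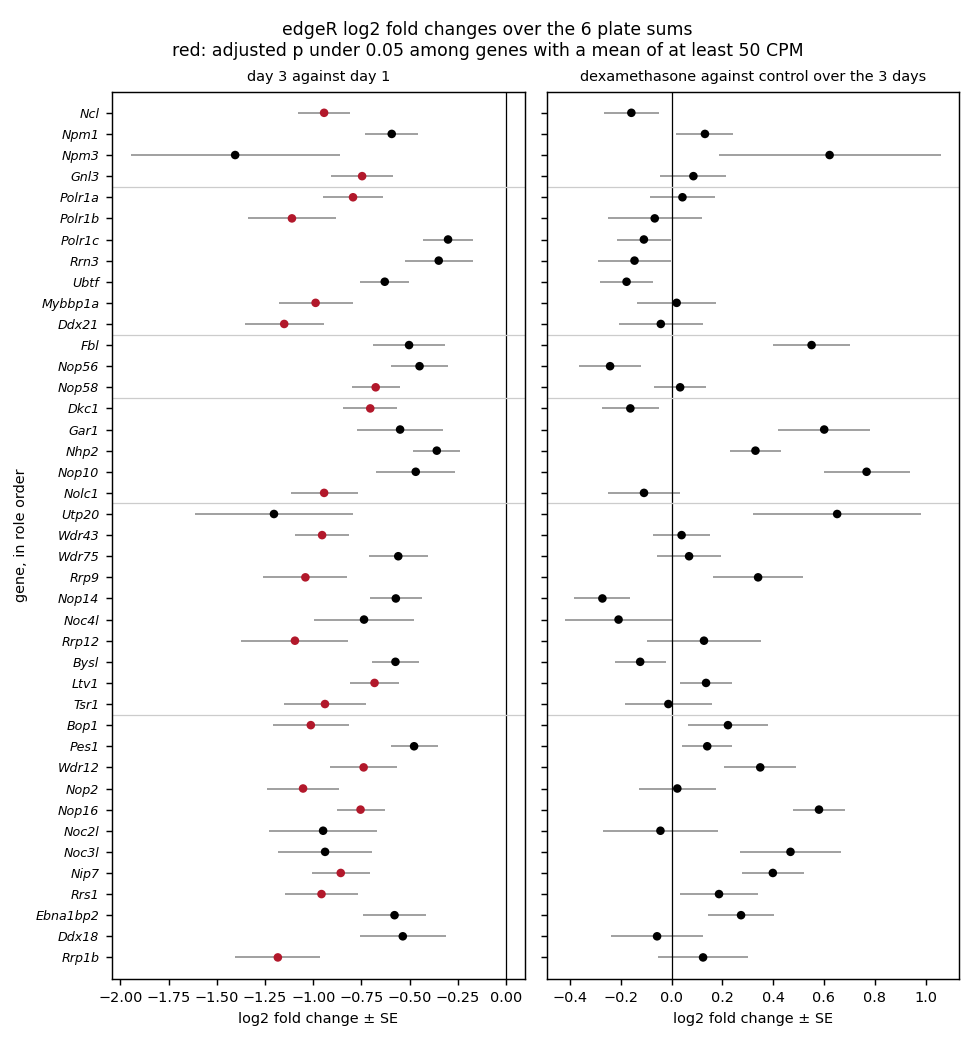
Log2 fold change with its standard error for each member in edgeR's fit of all 20040 genes over the 6 plate sums, day 3 against day 1 (left) and dexamethasone against control over the 3 days (right), in role order. Red points mark members that passed an adjusted p of 0.05 in the separate fit of genes with a mean of at least 50 CPM. All 41 points on the left lie below 0, and 26 on the right lie above it.

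Most of this difference was present by day 2. Day 2 against day 1 had a member median of -0.68 with 41 of 41 below 0 (0.02 over all genes tested), and 29 members at an unadjusted p under 0.05 (6.04% of genes). edgeR called 0 members (0% of all genes) after adjustment over all genes, 7 of 37 among genes of at least 50 CPM (1.71% of those genes), and DESeq2 called 23 (3.61%). The 7 were Gnl3, Polr1b, Nop56, Wdr43, Nop2, Nop16 and Nip7. With 1 plate left out fewer members passed, and none in some of these fits, in which few genes of any kind were called lower. The member median in these fits ranged from -0.83 to -0.46. With all plates but without the cells with neutrophil and monocyte markers, 9 members passed (103 of 4288 genes were lower). Day 3 against day 2 had a median of -0.09, with 12 members above 0 and 29 below. edgeR called no member in that comparison under either gene filter (0% and 0.139% of genes lower), 1 member was higher (2.92% of genes) and none lower (3.31%) at an unadjusted p under 0.05, and DESeq2 called none. Without the cells with neutrophil and monocyte markers the median was 0.11.

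The day course differed in size between the treatments as measured, without a test, since each side of it is a single plate. In controls the median log2 ratio of day 3 to day 1 was -0.91, and 32 of 41 members were past 1.5-fold lower (31% of genes tested, 20.1% of those of at least 50 CPM). With dexamethasone it was -0.62, and 22 members were past 1.5-fold lower (21.3% and 9.18%). From day 2 to day 3 the median was -0.25 in controls and 0.02 with dexamethasone. The 2 ratios share no plate.

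Dexamethasone against control asked whether the glucocorticoid altered these genes. Over the 3 days the median log2 fold change was 0.07, the same as the 0.07 over all genes tested, with 26 members above 0 and 15 below. edgeR's quasi-likelihood test with Benjamini-Hochberg adjustment called no member, either among all genes (0% of genes called) or among genes of at least 50 CPM (0.416% of genes higher and 0.462% lower). At an unadjusted p under 0.05, 6 members were higher (4.51% of genes) and none lower (5.82%), and DESeq2 called 2 higher (2.55%). The 3 highest fold changes were those of Nop10 at 0.77 (SE 0.17), Utp20 at 0.65 (SE 0.33) and Npm3 at 0.62 (SE 0.44), with edgeR adjusted p over all genes of 0.457, 0.549 and 0.670. The lowest were those of Nop14 at -0.27 (SE 0.11), Nop56 at -0.24 (SE 0.12) and Noc4l at -0.21 (SE 0.21), with edgeR adjusted p of 0.497, 0.543 and 0.793. Without the cells with neutrophil and monocyte markers the median was -0.01.

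The difference between treatments was not the same on each day. On day 1 the median log2 ratio of dexamethasone to control was -0.10 with 28 of 41 below 0, on day 2 it was -0.01 with 20 above and 21 below, and on day 3 it was 0.36 with 34 above. On day 3, 9 members were past 1.5-fold higher (29.4% of genes tested, 8.48% of those of at least 50 CPM), and none was past 1.5-fold lower (21.9% and 15.2%). All 12 large subunit factors and all 5 box H/ACA genes were above their control on day 3. In the polymerase I role, 7 of 7 genes were below the control on day 1 and 4 of 7 above it on day 3. Noc4l shows the turn, with log2 ratios of -0.57, -0.36 and 0.32 on days 1, 2 and 3. By contrast Gar1, at 0.60, 0.61 and 0.60, and Nop16, at 0.54, 0.58 and 0.62, showed nearly the same ratio on each day. The change over the days was not tested, because each day has 1 plate per treatment.

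The other ribosome biogenesis genes of a longer list, chosen from knowledge of the pathway, were also lower on later days. Of 127 such genes in the data, 126 were tested, with a median of -0.55 for day 3 against day 1, and 117 were below 0. At an unadjusted p under 0.05, 69 were lower (7.47% of all genes were). Among genes of at least 50 CPM, edgeR called 25 of 109 lower (5.15% of genes), and after adjustment over all genes it called 0. In that fit of the more abundant genes, the 3 lowest were Sdad1 at -1.18, Pwp2 at -1.17 and Heatr1 at -1.16 (Pwp2 and Heatr1 are components of the small subunit processome), with edgeR adjusted p of 0.0377, 0.0213 and 0.0587. The 3 highest were Pop5 at 0.36, a subunit of RNase MRP, and the large subunit factors Nsa2 at 0.32 and Nop53 at 0.29, none of which passed. The exosome and RNase MRP genes had a median of -0.36, the small subunit genes -0.56 and the large subunit genes -0.60.

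The genes of the ribosomal proteins themselves did not follow the assembly factors. Their 79 genes summed to 27188, 30157 and 37077 CPM in controls and to 33704, 31343 and 38333 CPM with dexamethasone. For day 3 against day 1 their median was 0.24, with 74 of 79 above 0, and edgeR called none of the 74 of at least 50 CPM (7.44% of such genes were higher). At an unadjusted p under 0.05, 9 of the 79 were higher, where 7.04% of all genes were. Hence the plates with the lowest member sum, those of day 3, had the highest sums of ribosomal protein genes. Myc was at 538, 263 and 250.5 CPM in controls and at 438, 357 and 441 CPM with dexamethasone. The MYC antagonist Mxd1 was at 22.1, 191 and 595 CPM against 20.2, 79.7 and 96.8 CPM. On day 3 the control plate thus had less Myc and more Mxd1 than the dexamethasone plate. Their part in the members' course was not tested.

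In single cells the levels spread differently from plate to plate. The median cell had a member sum of 22627, 9553 and 9198 CPM on the control plates and of 21874, 12692 and 13126 CPM with dexamethasone. The spread between cells widened in controls, where the 90th percentile was 2.31, 6.74 and 15.2 times the 10th, and less so with dexamethasone, at 1.83, 1.96 and 2.72 times. Control day 3 held cells from 194 to 24508 CPM, beside 6900 to 28080 CPM on control day 1. On dexamethasone day 2 no cell exceeded 19360 CPM. With every cell thinned to 500000 counts, the ratios were 2.15, 5.96 and 13.7 in controls and 1.66, 1.97 and 2.64 with dexamethasone.

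**Figure D4:**
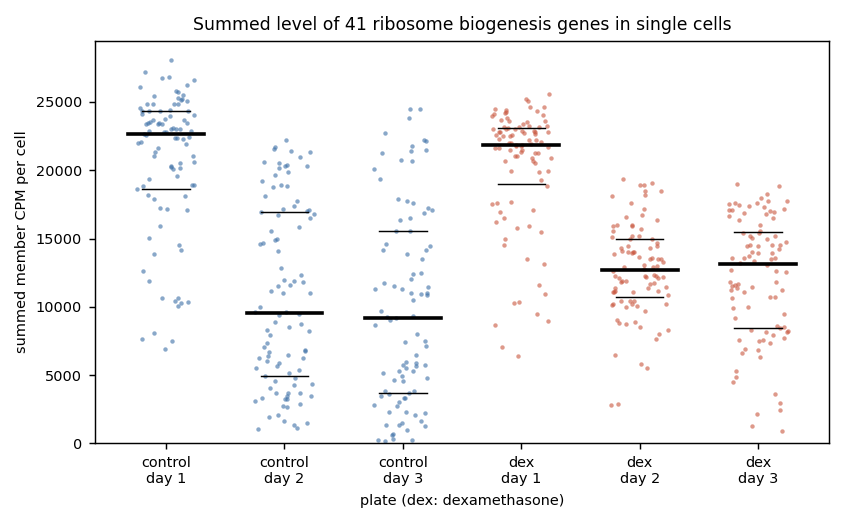
Summed CPM of the 41 members in each kept cell, by plate, with 1 point per cell and a line at the median. Control days 2 and 3 reach from near 0 to the level of day 1, with medians of 9553 and 9198 CPM, and the dexamethasone cells of those days are closer together.

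The members varied together from cell to cell. Over the 820 pairs of members, the median Spearman correlation across thinned cells was 0.23, 0.46 and 0.47 on the successive control plates (87, 83 and 91 cells) and 0.19, 0.19 and 0.30 with dexamethasone (92, 89 and 89 cells). Over all pairs of genes of at least 50 CPM it was between 0.01 and 0.08. Each of the 41 members was positively correlated with the sum of the others on all 6 plates, with medians over plates from 0.25 (Polr1c) to 0.83 (Ncl). Genes of at least 50 CPM also had positive median correlations with the member sum, between 0.066 and 0.298 on the 6 plates. The share of them positive on all 6 plates was not counted. The cells of a plate share a library preparation and a range of depth, and these values are descriptions. Outside the members and the pathway list, the 10 genes whose level was most like the member sum were Hspd1 (a mitochondrial chaperonin, median rho over the 6 plates 0.80), Set, C1qbp, Fkbp4, Cnbp, Pa2g4, Gart, Srm (spermidine synthase), Eif5a and Tomm5 (0.655).

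In both treatments, fewer members were detected in every cell on each later day. A count was present in every cell for 22, 6 and 2 of the 41 members on the control plates and for 27, 22 and 13 with dexamethasone. Fewer genes of any kind also had a count on later days. Their medians per cell were 8119, 7556 and 6961 in controls and 8923, 8829 and 8520 with dexamethasone. The share of all genes found in every cell was not counted. In thinned cells the median member was found in 100%, 91.57% and 80.22% of controls and 100%, 98.88% and 97.75% with dexamethasone. Utp20 had a count in 97.9%, 68.8% and 45.2% of control cells (exact 95% interval on day 3, 34.8% to 55.8%) and in 98.9%, 100% and 85.1% of dexamethasone cells (day 3, 76.3% to 91.6%). For Gar1 the shares were 94.7%, 70.8% and 59.1% against 96.8%, 96.7% and 84.04%, and for Npm3 79.8%, 38.5% and 26.9% against 89.4%, 65.2% and 60.6%. In thinned cells the Utp20 shares on day 3 were 43.96% and 82.02%. These intervals cover counting error only.

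Within a plate, the member sum was set beside a red cell score, the mean log2(CPM + 1) of the 14 red cell markers. Across all kept cells, Spearman's rho was 0.45, -0.90 and -0.70 on the successive control plates and 0.495, -0.21 and -0.72 with dexamethasone. On each plate a group of cells had a score under 4, with 27, 2 and 4 control cells and 26, 11 and 6 dexamethasone cells, and 24, 0 and 4 against 14, 4 and 6 of these held at least 2 neutrophil and monocyte markers. On day 1 these cells had lower member sums, with medians of 14187 (control) and 15225 CPM (dexamethasone), than the cells with a score of at least 4, at 23489 and 22626 CPM. Among cells with a score of at least 4, a limit set after the values were seen, rho was -0.38, -0.94 and -0.78 in controls and -0.11, -0.43 and -0.88 with dexamethasone. The positive values of day 1 therefore rest on the cells of low score.

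**Figure D5:**
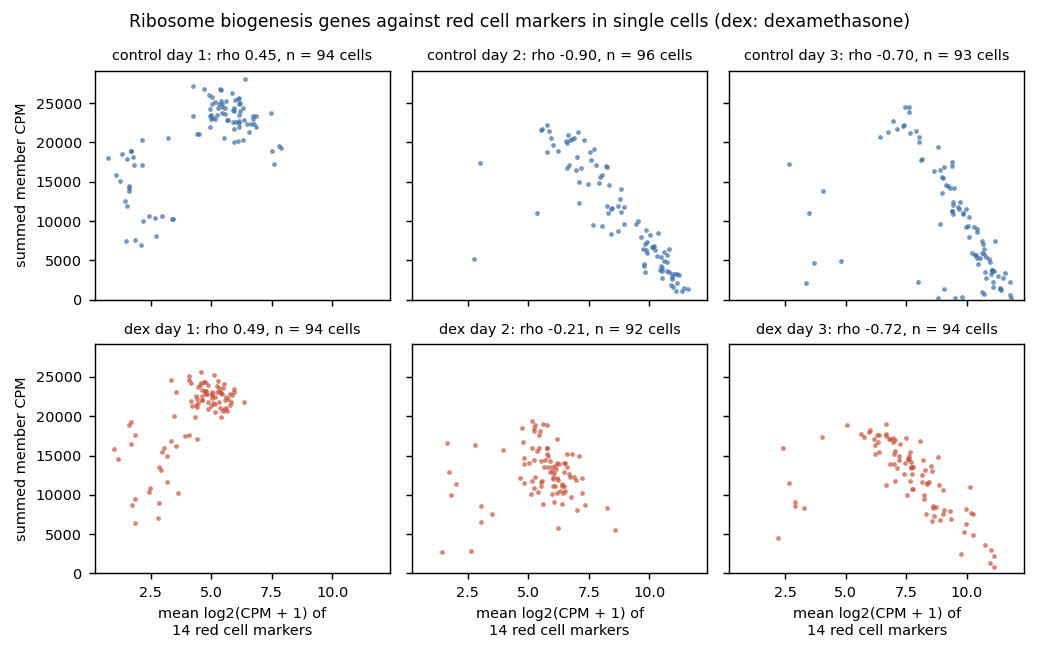
Member sum (CPM) against the mean log2(CPM + 1) of the 14 red cell markers in each kept cell, 1 panel per plate, with Spearman's rho over all cells. On control days 2 and 3 and dexamethasone day 3 the member sum declines along the score, and a separate group of cells of low score is seen on the left of the panels, largest on day 1.

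At a similar red cell score the dexamethasone cells of days 2 and 3 had lower member sums than control cells of the same day. At scores from 6 to 7 the median was 12187 CPM in 33 cells of dexamethasone day 2 and 20032 CPM in 10 cells of control day 2. Between 7 and 8 it was 14026 CPM in 27 cells of dexamethasone day 3 and 22179 CPM in 8 cells of control day 3, and between 8 and 9 it was 11367 CPM in 21 cells against 16429 CPM in 12 cells. The difference has the opposite direction to that of the plate sums of day 3. From thinned cells the same medians were 12206 and 19989, 13750 and 22202, and 11497 and 16588 CPM. By contrast, between 10 and 11 the medians were 6181 CPM in 6 dexamethasone cells and 5751 CPM in 24 control cells of day 3.

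In the band from 6 to 7 on day 2, 35 of the 41 members were lower with dexamethasone, and 18 were past 1.5-fold lower (16.1% of genes of at least 50 CPM). Between 7 and 8 on day 3, 35 were lower and 17 past 1.5-fold lower (20.9%), and between 8 and 9, 25 were lower and 6 past 1.5-fold lower (16.3%), which is close to the background. Ncl averaged 2249 CPM on dexamethasone day 2 and 4387 CPM on control day 2 in the first band, and 2217 against 4384 CPM on day 3 in the second. Mybbp1a averaged 428 against 989.6 CPM in the first band. Npm3 and Nop10 were among the 6 that were higher with dexamethasone in the first band, Nop10 at 195 against 133 CPM. In the order of the bands, the members' median log2 ratio was -0.48, -0.53 and -0.18, beside -0.04, -0.15 and -0.02 over genes of at least 50 CPM. The share of all genes that were lower by any amount was not counted. All bands lay below the median score of the control plate, 8.82 on day 2 and 9.72 on day 3. The dexamethasone plates of those days had median scores of 5.80 and 7.67. These bands were chosen after the values were seen, and cells of 1 plate are not replicates, so no test was made.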

How the data were processed

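The authors deposited unnormalized whole-number counts of reads for every gene in every well, made with STAR 2.4, featureCounts and build GRCm38, per the submitters' processing notes. The annotation release, strand setting and treatment of multi-mapped reads are not given in the sources here, so reads of overlapping, antisense or near-identical genes may be exchanged. Of 576 columns of values, 575 matched the label of a well and 1 was not used. The header line has an empty cell after that of the gene name. It was skipped, which leaves 576 names for 576 values per gene, and every plate label rests on this reading. Of 96 index pairs, 95 occur on all 6 plates.

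Wells with at least 50000 counts, at least 1500 genes and at most 20% mitochondrial counts were kept (563 cells). Cells are not replicates, so counts were summed per plate and tested with edgeR 4.0.16 (quasi-likelihood, TMM scaling, filterByExpr, day and dexamethasone as additive terms, Benjamini-Hochberg adjustment, threshold 0.05), which leaves 2 residual degrees of freedom. Nothing says that plates are separate cultures, and no group has a second plate. The p-values therefore rest on the departure of plates from additive day and dexamethasone terms. That departure mixes plate-to-plate spread, which may be technical, with any dexamethasone effect that differs between days, and the fit cannot separate them. The SE is the fold change divided by the root of F. Alternatives were DESeq2 1.42.0, limma 3.58.1 with voom, other filters and cell sets, and each plate left out. Ratios between 2 plates used a prior count of 2, and ratios between cell bands a pseudocount of 1 CPM. CPM of single cells were scaled by the cell's total counts alone. Thinned cells held 500000 counts (531 cells). Intervals are exact (Clopper-Pearson) at 95% and cover counting error only, since no molecular identifiers are stated. Exon lengths came from GENCODE vM21, promoters from RefSeq, and copies from blastn 2.17.0 (at least 95% identity over 200 bases).

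The members and lists were chosen with earlier results of these data known. Given plate by plate were the 2 members of each role with the highest CPM per kilobase, the 3 highest and lowest fold changes for dexamethasone and for day 3 against day 1, and Rrn3, Ubtf, Polr1a and Polr1b. Of the other pathway genes of at least 50 CPM, the 3 highest and lowest for day 3 against day 1 were named, and of the remaining genes the 10 with the highest median correlation with the member sum. Gnl3, Fbl, Dkc1, Gar1, Wdr12, Bop1, Pes1, Myc and Mxd1 were added after their values were seen.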

Additional observations from a re-analysis of the deposited data

Results flagged for a closer look

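The members' median log2 ratio of dexamethasone to control was -0.10 on day 1 and 0.36 on day 3, opposite in sign. The difference between these days was not tested, since each day has 1 plate per treatment. The neutrophil and monocyte markers were higher on the control plate than on the dexamethasone plate on both days (1340 against 319 CPM on day 1 and 1894 against 587 CPM on day 3), and their part in the turn was not tested.

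From day 2 to day 3 the members' median log2 ratio was -0.25 in controls and 0.021 with dexamethasone, also opposite in sign. This difference was not tested either, and control day 2 was the plate with 0 cells that held at least 2 of those markers.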

How the results depend on the processing

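The negative direction of the members' median for day 2 and day 3 against day 1 held under each alternative run. Calls did not, and the cause was not tested. For day 3 against day 1, edgeR called 0 members and 0 other pathway genes with all genes tested, 21 and 25 among genes of at least 50 CPM, 11 and 9 among these without cells with neutrophil and monocyte markers, and DESeq2 called 30 and 51. For day 2 against day 1 the counts were 0 and 0, 7 and 11, 9 and 17, and 23 and 46. DESeq2 called 2 members and 2 other pathway genes higher for dexamethasone, where it called 2.55% of all genes higher. Of all genes, DESeq2 called 5.16% lower for day 3 against day 1 and 3.61% for day 2 against day 1. With 50 CPM as the limit, edgeR called 5.15% and 1.71% of genes lower in these 2 comparisons. Without cells with neutrophil and monocyte markers it called 106 and 103 of 4288 such genes lower. The other pathway genes tested were 126 with DESeq2 and 109 in these 2 edgeR fits. With 1 plate left out, counts among genes of at least 50 CPM ranged from 0 to 18 (members; 6 without dexamethasone day 3) and 0 to 20 (other genes) for day 3 against day 1, from 0 to 3 and 0 to 5 for day 2 against day 1, and from 0 to 1 for members with dexamethasone, and were 0 with all genes tested.

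Medians near 0 changed sign. With 1 plate left out the dexamethasone median ranged from -0.059 to 0.15 (-0.026 to 0.19 among genes of at least 50 CPM, with -0.0204 without control day 3), that of day 3 against day 2 from -0.27 to 0.072 (-0.27 to 0.064), and that of day 2 against day 1 from -0.84 to -0.52 (-0.83 to -0.46). Without cells with neutrophil and monocyte markers they were -0.011 (dexamethasone) and 0.11 (day 3 against day 2; 0.053 among genes of at least 50 CPM).

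Single members with dexamethasone and 1 plate left out ranged from -0.16 to 0.15 (Mybbp1a), -0.25 to 0.0598 (Ddx21), -0.034 to 0.066 (Nop58), -0.24 to 0.036 (Nolc1), -0.16 to 0.13 (Nop2), -0.092 to 0.27 (Rrp1b), -0.073 to 0.12 (Polr1a) and -0.30 to 0.071 (Polr1b). For day 3 against day 2 the ranges were -0.037 to 0.15 (Npm1), -0.15 to 0.0039 (Nop58), -0.42 to 0.36 (Noc4l), -0.34 to 0.16 (Nop2), -0.94 to 0.15 (Npm3), -0.28 to 0.23 (Nop10), -0.53 to 0.072 (Rrp1b), -0.28 to 0.15 (Rrn3), -0.003 to 0.15 (Ubtf) and -0.21 to 0.45 (Polr1b), and for day 2 against day 1 -0.93 to 0.20 (Utp20).

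With DESeq2 or its size factors, the dexamethasone values of Mybbp1a and Nop2 were -0.0042 and -0.0016, and that of Mybbp1a was -0.0145 with limma and -0.0078 in thinned cells. Among genes of at least 50 CPM, Ddx21 stood at 0.026 and Polr1b at 0.0021. Without cells with neutrophil and monocyte markers the dexamethasone values were -0.025 (Npm1), -0.021 (Mybbp1a), -0.078 (Nop58), -0.011 (Ltv1), -0.054 (Nop2) and 0.0084 (Polr1b), and those of day 3 against day 2 were 0.13 (Nop58), 0.001 (Nolc1), 0.22 (Noc4l), 0.10 (Ltv1), 0.11 (Nop2), 0.0031 (Npm3), 0.14 (Nop10) and 0.051 (Rrn3). Noc4l stood at 0.0087 for day 3 against day 2 in thinned cells.

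Relative to control day 1, the member sum of control days 2 and 3 was 0.614 and 0.546, against 0.557 and 0.479 in thinned cells, 0.422 and 0.407 by the median over cells and 0.534 and 0.589 without cells with neutrophil and monocyte markers. That of dexamethasone day 2 was 0.612, against 0.561 and 0.58 for the last 2.

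Across cells, correlations of the member sum on day 1 changed sign among cells with a red cell score of at least 4, an alternative added after seeing the data. They became -0.375 (control) and -0.108 (dexamethasone) with red cell markers, 0.169 and 0.041 with early progenitor markers and -0.178 with S phase genes (control). That with Myc became 0.099 on dexamethasone day 1 and -0.056 on day 2. Without cells with neutrophil and monocyte markers, the control day 1 value with red cell markers was -0.242, and those of dexamethasone day 1 were 0.019 with early progenitor markers and 0.003 with Myc, which was 0.01 for the sum without Npm1 and Ncl. The cause of these changes was not tested. The leave-one-out fits and combined settings of the 50 CPM filter were also added after seeing the data. Beyond the day term of the model, which sets the control and dexamethasone plates of a day side by side, no paired analysis was possible because the numbers in the labels name wells of a plate.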

Other observations

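Targets of p53 had higher levels on the plates where the members were low. Of 18 tested, 16 had a log2 fold change above 0 for day 3 against day 1, with a median of 1.93, and edgeR called 8 of the 9 of at least 50 CPM higher (322 of all 4326 such genes) and none after adjustment over all genes. Cdkn1a, the cell cycle inhibitor of this list, stood at 90.2, 501 and 607 CPM in controls and at 54.4, 438 and 346 CPM with dexamethasone. Across single cells, the member sum and the mean log2(CPM + 1) of the p53 targets had a Spearman rho between -0.14 and 0.09 on the 6 plates.

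S phase genes did not follow the members across plates. Their median for day 3 against day 1 was -0.20, and with dexamethasone it was -0.50, with 26 of 26 below 0, of which edgeR called 1 among genes of at least 50 CPM (20 of 4326 such genes were called lower) and none with all genes tested, while 14 were lower at an unadjusted p under 0.05 (5.82% of all genes). Across cells their rho with the member sum was 0.20, 0.36 and 0.65 on the control plates of days 1 to 3 and -0.11, 0.29 and 0.33 on the dexamethasone plates.

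Of genes outside the pathway, the lowest median rho with the member sum were those of the nuclear noncoding RNA Malat1 at -0.59, Cd47 at -0.50 and the lysosomal protease gene Ctsd at -0.50. Malat1 was negative on all 6 plates, from -0.82 on control day 3 to -0.28 on dexamethasone day 1.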
